A study of Mus musculus with 23 samples.

Results

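The 62 genes described here encode subunits of the mitochondrial respiratory chain and were taken by symbol from 35523 genes measured in 23 RNA-seq libraries of mouse pancreatic stellate cells (PSCs) and pancreatic tumour organoids. They are the protein-coding genes whose symbols begin with mt-Nd, mt-Co, mt-Cytb or mt-Atp, with Nduf followed by a, b, c, s or v and a number, or with Uqcr, together with Sdha, Sdhb, Sdhc and Sdhd. Mitochondrial DNA encodes 13 of them, of which 7 belong to complex I, 1 to complex III, 3 to complex IV and 2 to the ATP synthase, complex V. The nucleus encodes the other 49, of which 36 carry complex I symbols, 4 belong to complex II, 8 to complex III and 1, Ndufa4, to complex IV.

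PSCs, the fibroblast-like cells of the pancreas, were grown together with tumour organoids in Matrigel, a basement membrane gel, over 3.5 days in a medium labelled reduced/control, and the 2 cell populations were then separated by flow sorting. The study compared PSCs with a knockout (KO) of Egfr, which encodes the epidermal growth factor receptor, with wild-type (WT) PSCs, and the organoids grown beside either. The 8 KO PSC libraries hold clones A3 and B4 of parent PSC4, each with organoid lines T6-LOH, T12-LOH and T69A, and clones C5 and D4 of parent PSC5, each with T6-LOH. The 4 WT PSC libraries, titled Rosa, hold PSC4 with each of the 3 organoid lines and PSC5 with T6-LOH. The 7 organoid libraries grown with KO PSCs match the KO PSC libraries except that T69A organoids with clone A3 were not analysed here, and the 4 organoid libraries grown with WT PSCs match the 4 WT PSC libraries. The labels name no edit in the organoid lines, so KO and WT in an organoid library refer to the PSCs beside it. Each clone is a single line, so genotype and clone cannot be told apart within a culture, and because the labels do not say that libraries of a group are separate cultures or animals, the p-values measure only the spread between these libraries.

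Complexes I, II, III and IV pass electrons from NADH and succinate to oxygen and, II excepted, pump protons across the inner mitochondrial membrane, and complex V uses the proton gradient to make ATP. Complex II is wholly nuclear in origin, whereas the other complexes join subunits transcribed inside the mitochondrion, as long multigene transcripts from each strand of a small circular genome, to subunits transcribed from many separate nuclear genes. The 2 sets therefore depend on different RNA polymerases, and their mRNA levels need not move together.

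Libraries held 21731624 to 34677662 estimated counts on genes. Egfr was at 57.3 to 345 CPM (counts-per-million, scaled for library size) in the 8 KO PSC libraries and at 278 to 419 CPM in the 4 WT PSC libraries, and each KO library lay below its own WT library. Clone D4, at 345 CPM, lay inside the WT range. Epithelial markers (12 genes) summed to 22.2 to 154 CPM in PSCs and 14384 to 19714 CPM in organoids. Fibroblast markers (12 genes) summed to 7925 to 20158 CPM in PSCs and 2.29 to 29.0 CPM in organoids, so each fraction carried the markers of its label. In bulk RNA, fewer cells of a type and less RNA per cell cannot be told apart.

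Nuclear DNA carries pseudogene copies of several mitochondrial genes, and reads were divided between gene and copy by the estimation model. Over the aligned length mt-Co2 and Gm28661 were identical in all 681 bases, mt-Atp6 and Gm10925 in all 678 bases, and mt-Co3 and Gm28437 in all 783 bases. The copy was given 95.8 to 99.3% of the pair's counts for mt-Co2, 87.4 to 94.2% for mt-Atp6 and 73.1 to 90.6% for mt-Co3, so the deposited values of these 3 genes are uncertain by themselves. Gm29216 covers only the last 483 bases of mt-Co1, which encodes the catalytic subunit of complex IV, and took 2.71 to 6.52% of that pair's counts. The start of that shared stretch is shown because its only difference, A1066T with positions counted from 1 at the 5′ end of the mt-Co1 transcript, is the only base by which a read inside it can be told apart; the capital marks that base, read in GRCm38 at chrM:6390-6449 on the plus strand for mt-Co1 and at chr1:24616129-24616188 on the minus strand for Gm29216.
mt-Co1: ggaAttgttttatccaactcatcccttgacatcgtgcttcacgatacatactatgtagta
Gm29216: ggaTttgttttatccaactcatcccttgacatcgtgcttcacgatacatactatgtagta
Identical stretches of 342 bases between mt-Nd3 and Gm28438 and of 876 bases between mt-Nd4 and Gm28439 also exist, but both copies had 0 counts in all 23 libraries. For mt-Co1, mt-Co2, mt-Co3 and mt-Atp6, values with the copy's counts added are therefore given, a choice made after seeing the data.

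**Figure D1:**
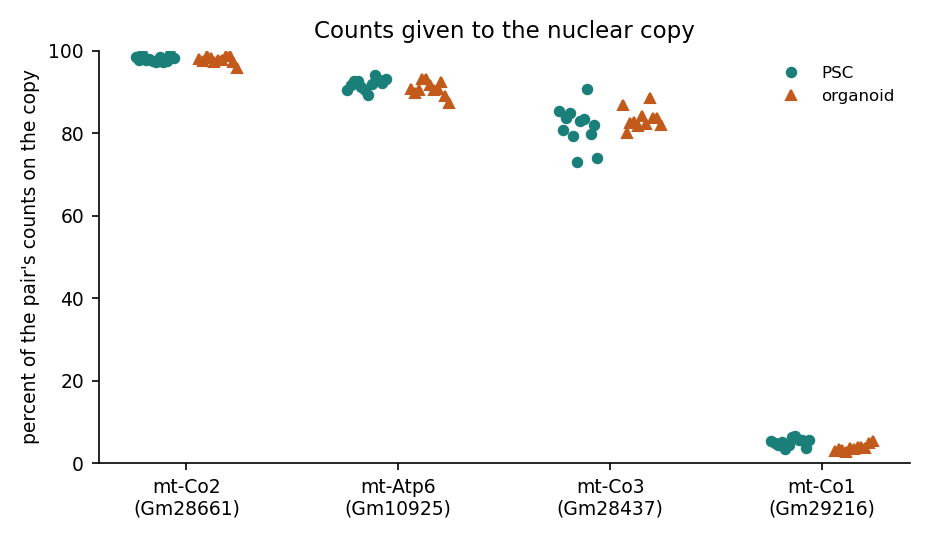
Percent of the counts of each gene and its nuclear copy that were given to the copy (y axis), with 1 point per library, 12 PSC libraries as circles and 11 organoid libraries as triangles. The copies of mt-Co2, mt-Atp6 and mt-Co3 hold 73.1 to 99.3% in every library, and the copy of mt-Co1 holds 2.71 to 6.52%.

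Per length, the mitochondrial genes were far above the nuclear ones. In transcripts-per-million values (TPM), which correct for length, mt-Co1 as deposited had a median level of 12222 in PSCs and 15205 in organoids, mt-Cytb, the cytochrome b of complex III, 5741 in PSCs and 6704 in organoids, and mt-Nd1, a membrane subunit of complex I, 5891 in PSCs and 8172 in organoids. The lowest of the genes without a read-sharing copy was mt-Nd6, the only member transcribed from the light strand, with median levels of 136.8 TPM in PSCs and 213.6 TPM in organoids. Most nuclear members lay between about these values: Ndufa4 had median levels of 331 TPM in PSCs and 271 TPM in organoids, the flavoprotein subunit Sdha of complex II 92.4 TPM in PSCs and 125 TPM in organoids, and the complex I core subunit Ndufs1 51.6 TPM in PSCs and 75.3 TPM in organoids. Ndufb4 was low, at 11.7 to 18.3 TPM in PSCs and 13.1 to 19.7 TPM in organoids, beside a near-identical gene, Ndufb4c, with higher counts (12.9 to 22.3 CPM against 4.77 to 9.82 CPM for Ndufb4 over the 23 libraries), so its level is uncertain. Ndufa4l2, a paralog of Ndufa4 induced by low oxygen, had a median level of 8.92 TPM in PSCs and 0 TPM in organoids.

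As a share of all gene counts and as deposited, without the copies, the mitochondrial set averaged 2.61 ± 0.237% in KO PSCs (SD, n = 8) and 2.16 ± 0.202% in WT PSCs (SD, n = 4). It averaged 3.15 ± 0.508% in organoids with KO PSCs (SD, n = 7) and 3.50 ± 1.17% in organoids with WT PSCs (SD, n = 4). Within co-cultures, however, 4 of 7 organoid libraries with KO PSCs were above the WT one, with differences from -1.73 to 0.437 percentage points. The nuclear set averaged 0.256 ± 0.0176% in KO PSCs and 0.261 ± 0.0142% in WT PSCs. It averaged 0.333 ± 0.0297% in organoids with KO PSCs and 0.313 ± 0.0221% in organoids with WT PSCs. With the copies added, the mitochondrial set averaged 3.64 ± 0.309% in KO PSCs and 3.07 ± 0.292% in WT PSCs. In organoids it then averaged 4.41 ± 0.699% with KO PSCs and 4.95 ± 1.74% with WT PSCs. The organoid libraries differed by line. T12-LOH organoids held 2.51, 2.54 and 2.11% mitochondrial counts as deposited with clones A3 and B4 and with WT PSC4, and T69A organoids held 3.23% with clone B4 and 4.96% with WT PSC4, the highest of all libraries. The mitochondrial set thus spread more widely between organoid libraries than between PSC libraries. The nuclear set was at 0.221 to 0.280% in the PSC libraries and at 0.287 to 0.364% in the organoid libraries, without overlap. In 0 of 11 cultures was its share higher in the PSCs than in the organoids.

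**Figure D2:**
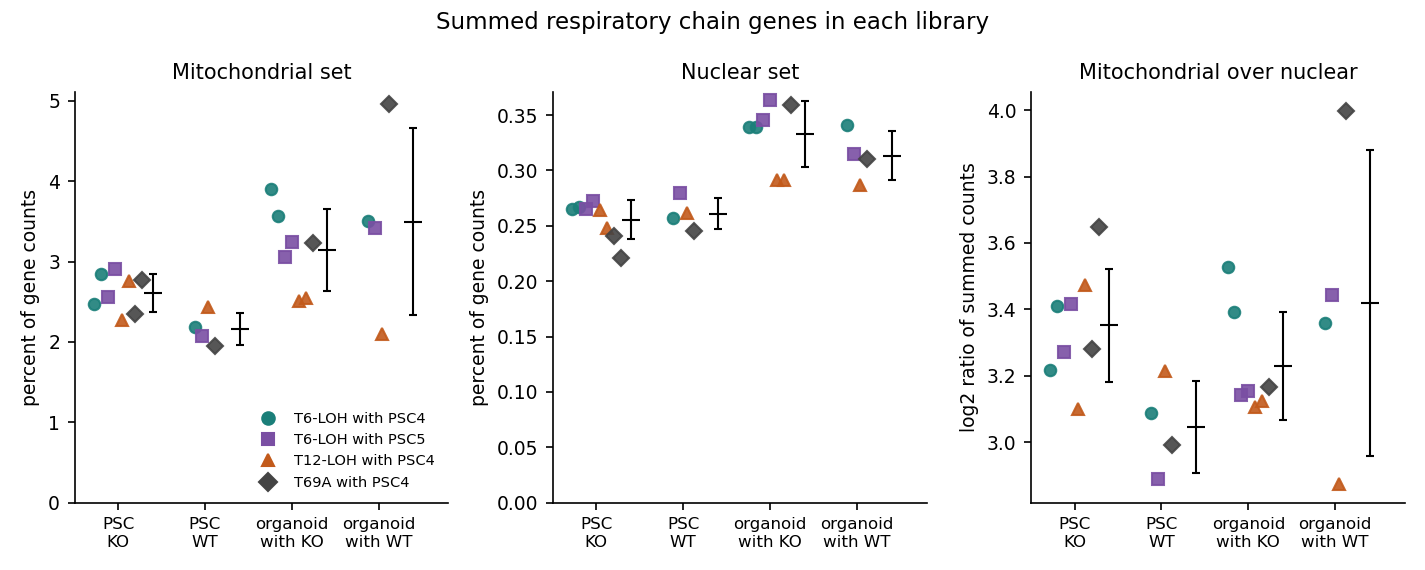
Summed counts of the 13 mitochondrial genes, without copies, and the 49 nuclear genes as a percent of all gene counts, and the log2 ratio of the 2 sums (y axes), with 1 point per library and the mean ± SD of each group beside it; the symbol gives the co-culture. The KO PSC libraries, at 2.27 to 2.90%, overlap the WT PSC libraries, at 1.96 to 2.43%, in the mitochondrial sum. In the nuclear sum KO and WT overlap within each fraction, while the PSC libraries, up to 0.280%, lie below the organoid libraries, from 0.287%.

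In KO PSCs, none of the 62 genes passed the test against WT PSCs (edgeR's quasi-likelihood test, Benjamini-Hochberg adjusted p under 0.05, 0 of 62), where 0.0638% of all 14107 genes tested passed in either direction. All 13 mitochondrial genes had a positive log2 fold change, with a median of 0.34 as deposited and 0.31 with copies added, whereas the 49 nuclear genes had a median of -0.08 with 17 positive, and all genes tested had a median of 0.00. At an unadjusted p under 0.05 there were 8 mitochondrial and 4 nuclear genes, where 13.7% of all genes were. DESeq2 called 6 of the 62 genes, where it called 4.25% of all genes, namely mt-Nd2, mt-Nd4, mt-Nd4l, mt-Cytb and mt-Atp6 higher and Ndufc1 lower, and of these mt-Atp6 is a gene with a read-sharing copy.

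The mitochondrial genes with the largest differences encode membrane subunits of complex I. mt-Nd4 was at 2571 CPM at the lowest, 2977 CPM at the median and 3326 CPM at the highest in KO PSCs, against 2333, 2564 and 1986 CPM in WT PSC4 with T6-LOH, T12-LOH and T69A and 1993 CPM in WT PSC5. It was the only mitochondrial gene whose groups did not overlap, where 0.461% of all genes were higher and 1.03% lower without overlap. Its lowest KO library, clone A3 with T12-LOH, lay just above the highest WT library, which was of the same organoid line. Its log2 fold change was 0.41 (SE 0.12, adjusted p = 0.203), and KO libraries lay above their own WT library in 8 of 8 cases. The 8 cases share 4 WT libraries and come from 4 clones, so here and below such cases are not independent.

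mt-Nd4l, which shares its transcript with mt-Nd4, was at 355, 443 and 505 CPM (lowest, median, highest) in KO PSCs and at 321, 378, 294 and 291 CPM in the 4 WT PSC libraries in the same order as above. Its groups overlapped, but every KO library was above its own WT library, and the log2 fold change was 0.43 (SE 0.11, adjusted p = 0.174). mt-Nd5 was at a log2 change of 0.41 (SE 0.15, adjusted p = 0.290), mt-Nd2 of 0.40 (SE 0.12, adjusted p = 0.226) and mt-Cytb of 0.39 (SE 0.12, adjusted p = 0.244). Among the other mitochondrial genes, mt-Nd6 was at 0.34, mt-Nd3 at 0.31, mt-Nd1 at 0.23 and mt-Atp8 at 0.22. The genes of complexes IV and V with copies added had the smallest differences: mt-Atp6 0.22, mt-Co3 0.18, mt-Co2 0.16 and mt-Co1 0.12, the last with an adjusted p of 0.587. mt-Co1 averaged 10560.2 ± 1116 CPM in KO PSCs (SD, n = 8) and 9683 ± 420 CPM in WT PSCs (SD, n = 4), with overlapping groups, and 7 of 8 KO libraries were above their own WT library.

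Nuclear subunits showed no common direction. Ndufc1, a small accessory subunit of complex I, averaged 20.7 ± 3.72 CPM in KO PSCs and 27.3 ± 2.66 CPM in WT PSCs (SD, n = 8 and 4), at a log2 change of -0.42 (SE 0.12, adjusted p = 0.206), and no KO library was above its own WT library. Ndufb5 and Ndufb8, accessory subunits of the membrane arm, had log2 fold changes of -0.18 and -0.20, and Ndufv2, an iron-sulphur subunit of the NADH-oxidising module, of 0.15. Ndufc1 and Ndufb5 lie on chromosome 3, whose genes had a median log2 fold change of -0.31 in this comparison. The 4 genes of complex II lay close to 0, with Sdha at -0.03, Sdhb, the iron-sulphur subunit, at -0.10, and the membrane anchors Sdhc and Sdhd at -0.13 and -0.02.
The log2 ratio of the mitochondrial to the nuclear sum was higher than in the own WT library in 7 of 8 KO libraries, by 0.31 on average (SD 0.23), from -0.11 in clone A3 with T12-LOH to 0.66 in clone B4 with T69A, and with copies added by 0.28 (SD 0.24), again in 7 of 8. Within the parent PSC4 the difference was larger in clone B4 than in clone A3 beside each of the 3 organoid lines.

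**Figure D3:**
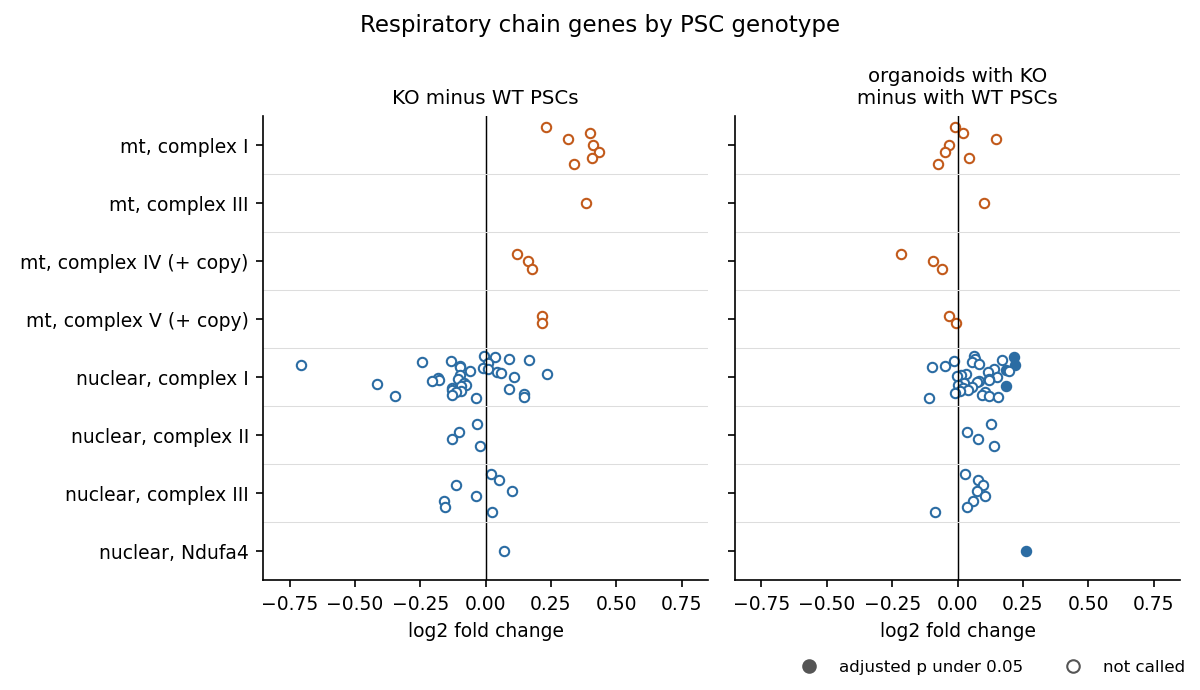
Log2 fold change of each respiratory chain gene (x axis) by genome and complex (rows), for KO minus WT PSCs on the left and for organoids with KO PSCs minus organoids with WT PSCs on the right; filled points have an adjusted p under 0.05, and mt-Co1, mt-Co2, mt-Co3 and mt-Atp6 include their copies. In PSCs every mitochondrial gene lies above 0 and none is filled, and in organoids 5 nuclear genes are filled.

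In KO PSCs no gene of the lists around the members passed, where 0.0638% of all genes did, so counts of 0 were near that share. They were 0 of 14 nuclear complex IV genes tested, 0 of 16 complex V genes and 0 of 40 assembly factors. Also at 0 were the 31 genes of mitochondrial DNA upkeep and RNA synthesis, the 78 mitochondrial ribosome genes and the 16 citric acid cycle genes. The smallest p among them was that of Cox4i2, the complex IV isoform associated with low oxygen, at 1.32 ± 1.66 CPM in KO PSCs and 6.69 ± 4.10 CPM in WT PSCs (SD, n = 8 and 4; log2 fold change -2.99, SE 0.68, adjusted p = 0.148).

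In organoids grown with KO PSCs, 5 of 48 tested nuclear members were higher than in organoids grown with WT PSCs and 0 were lower, where 4.28% of all genes were higher and 6.05% lower. No mitochondrial gene passed (0 of 13 by edgeR, 0 at an unadjusted p under 0.05, where 29.1% of all genes were, and 0 by DESeq2), and their median log2 fold change as deposited was -0.01, with 5 positive. The nuclear members had a median of 0.07, 41 of 48 being positive, and all genes tested had a median of -0.01.

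Ndufa4, a subunit of complex IV that was long counted with complex I, rose most. Its level was 61.9, 61.6, 67.3 and 64.6 CPM in T6-LOH organoids with clones A3, B4, C5 and D4, 91.5 and 84.9 CPM in T12-LOH organoids with A3 and B4, and 92.4 CPM in T69A organoids with B4, against 55.4 and 47.0 CPM in T6-LOH organoids with WT PSC4 and PSC5, 76.2 CPM in T12-LOH and 79.7 CPM in T69A organoids with WT PSC4. The groups overlapped across lines, but within each co-culture every KO library was above its WT library (7 of 7), at a log2 change of 0.26 (SE 0.06, adjusted p = 0.0167). Ndufs1, the largest core subunit of complex I, rose by 0.18 (SE 0.04, adjusted p = 0.0254; 7 of 7), and averaged 111 ± 22.6 CPM with KO PSCs and 97.5 ± 24.4 CPM with WT PSCs (SD, n = 7 and 4). The accessory subunits Ndufa10 (0.22, SE 0.05, adjusted p = 0.0281; 6 of 7), Ndufa9 (0.19, SE 0.05, adjusted p = 0.0318; 7 of 7) and Ndufa5 (0.22, SE 0.06, adjusted p = 0.0443; 7 of 7) also rose. Sdha at 0.13 and Sdhd at 0.14 did not pass (adjusted p = 0.0672 and 0.0806), and DESeq2 called 7 nuclear members, adding Ndufv2 and Sdha, where it called 13.6% of all genes in either direction.

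Calls in the nuclear lists around the members stand beside 4.28% higher and 6.05% lower over all genes. Estimates were positive for 70 of 78 mitochondrial ribosome genes, 16 of 16 citric acid cycle genes and 16 of 16 complex V genes. They were also positive for 28 of 31 genes of mitochondrial DNA upkeep and RNA synthesis and 32 of 40 assembly factors. Among regulators of mitochondrial biogenesis 5 of 11 were positive. Among 78 mitochondrial ribosome genes 7 were higher and 0 lower. Among 16 citric acid cycle genes 3 were higher (Suclg2 0.24, Suclg1 0.19 and Fh1 0.19). Among 16 complex V genes 1 was higher (Atp5b, the catalytic beta subunit, 0.17). Among 31 genes of mitochondrial DNA upkeep and RNA synthesis 4 were higher and 1 lower, with Lrpprc, a stabiliser of mitochondrial mRNA, at 0.23. Among 40 assembly factors 2 were higher and 0 lower, and no gene passed among 12 nuclear complex IV genes, 12 electron carriers and further complex I genes, and 11 regulators of mitochondrial biogenesis. Fibroblast markers summed to 2.29 to 8.42 CPM in organoids with KO PSCs and 6.11 to 29.0 CPM in organoids with WT PSCs, and 3 of the 6 tested were lower with KO PSCs. Early response and heat shock genes, which sorting can switch on, summed to 4219 to 5501 CPM in organoids with KO PSCs and 4027 to 5024 CPM in organoids with WT PSCs, and of 10 tested 3 were higher and 1 lower with KO PSCs. The part of either list in the result was not tested. The count of called members rested on single libraries: it was 0 to 11 when each was left out in turn, and it was 2 without the T69A co-culture, mt-Nd3 and Ndufa4.

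The difference between the KO effect in PSCs and the KO effect in organoids was tested directly, and 0 mitochondrial and 0 nuclear members passed, where 0.539% of all genes did in either direction. At an unadjusted p under 0.05 there were 5 mitochondrial and 8 nuclear members, where 15.8% of all genes were. The estimates for the 13 mitochondrial genes were all positive, with a median of 0.37 as deposited and 0.29 with copies added, and those for the nuclear members had a median of -0.15. mt-Nd4l had the largest estimate among mitochondrial genes without a copy, 0.49 (SE 0.18, adjusted p = 0.197), and Ndufs1 was at -0.28 (SE 0.08, adjusted p = 0.120). DESeq2 called 4, where it called 3.92% of all genes, with mt-Atp6 positive and Ndufa9, Ndufb5 and Ndufs1 negative. Between the parents, the KO effect in PSC5 minus that in PSC4 also gave 0 calls, where 0% of all genes passed, with 2 mitochondrial and 1 nuclear member at an unadjusted p under 0.05 (4.84% of all genes) and 0 by DESeq2 (0.645%).

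Between the fractions, most members were lower in PSCs than in the organoids of the same culture. Of the 13 mitochondrial genes 11 were lower and 0 higher, and 12 were lower with copies added; of 48 tested nuclear members 25 were lower and 7 higher (edgeR's quasi-likelihood test over 11 cultures), where 38.0% of all genes were lower and 37.3% higher. All 4 complex II genes fell, as did 5 of 8 nuclear complex III genes, whereas in nuclear complex I 16 of 35 fell and 7 rose. The median log2 fold change was -0.42 for the mitochondrial genes with copies added, -0.27 for the nuclear members and -0.03 for all genes. The log2 ratio of the 2 sums differed between the fractions by -0.05 on average in counts (SD 0.45), positive in 6 of 11 cultures, and by -0.26 in TPM (SD 0.45), positive in 3 of 11. The mitochondrial share of gene counts was higher in PSCs in 2 of 11 cultures, T12-LOH with clone B4 (by 0.22 percentage points) and with WT PSC4 (by 0.32).

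The mitochondrial genes differed among themselves. mt-Nd2, a membrane subunit of complex I, was at 1031, 1545 and 1953 CPM (lowest, median, highest) in PSCs and at 1882, 2498 and 3185 CPM in organoids of the same 11 cultures. The ranges overlapped, but PSCs were below the organoids in every culture, at a log2 change of -0.77 (SE 0.11, adjusted p = 3.33e-05). mt-Nd1 fell by 0.74, mt-Atp8 by 0.72 and mt-Nd6 by 0.68, whereas mt-Cytb and mt-Nd3 fell by 0.41 and mt-Nd4 by 0.36 (SE 0.13, adjusted p = 0.0227). With copies added, mt-Atp6 fell by 0.67, mt-Co2 by 0.44, mt-Co1 by 0.42 and mt-Co3 by 0.31. mt-Nd5, whose product ends the membrane arm of complex I, was the exception at 0.13 (SE 0.12, adjusted p = 0.309), with 1912 ± 376 CPM in PSCs and 1732 ± 237 CPM in organoids (SD, n = 11 each).

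The nuclear subunits with the largest differences came from several modules. Ndufs6, an accessory subunit at the base of the NADH-oxidising arm of complex I, was at 10.8, 15.9 and 18.3 CPM (lowest, median, highest) in PSCs and at 33.0, 38.9 and 49.99 CPM in organoids. Ndufs8, a core iron-sulphur subunit, was at 20.2, 31.9 and 38.5 CPM in PSCs and 61.4, 74.0 and 85.1 CPM in organoids. Sdhd, a membrane anchor of complex II, was at 56.4, 70.6 and 81.7 CPM in PSCs and 130, 163 and 207 CPM in organoids. In these 3 genes the fractions did not overlap, and they fell by 1.33 (SE 0.11, adjusted p = 1.59e-07), 1.30 (SE 0.09, adjusted p = 1.4e-08) and 1.23 (SE 0.09, adjusted p = 6.28e-08) on the log2 scale.

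Ndufb3, a membrane arm subunit, fell by 1.19, and Uqcrc1, a core subunit of complex III, by 1.04, although its organoid values spread from 108 to 292 CPM by line. Uqcrc2, its partner, fell by 0.70, Uqcrfs1, the Rieske iron-sulphur subunit, by 0.62, Sdha by 0.67, Sdhc by 0.63 and Sdhb by 0.34. Among the other complex I subunits, Ndufb8 fell by 0.67, Ndufs1 by 0.61 and Ndufv1 by 0.38. Ndufa4 (0.14), Ndufa9 (-0.12) and Uqcrh (-0.21, adjusted p = 0.0601) did not pass.

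The opposite direction was led by Ndufa1, a small accessory subunit needed for complex I assembly, at 27.8, 31.7 and 37.9 CPM in PSCs and 12.0, 14.5 and 16.8 CPM in organoids, with no overlap and a log2 change of 1.19 (SE 0.09, adjusted p = 3.1e-08). Ndufb11, a membrane arm subunit, rose by 0.75, with 77.9 ± 5.61 CPM in PSCs and 46.7 ± 6.24 CPM in organoids (SD, n = 11 each). Both genes lie on the X chromosome, whose genes had a median log2 fold change of 0.81 in this comparison. Ndufa5 rose by 0.46, Ndufb2 by 0.31 and Ndufs5 by 0.30. Over all nuclear members, 14 were lower and 3 higher with no overlap between fractions, and 0 mitochondrial genes were, where 20.0% of all genes were lower and 20.3% higher without overlap. By adjusted p, 38.0% of all genes were lower in PSCs and 37.3% higher. The lists around the members were mostly lower in PSCs: 13 of 16 complex V genes, 8 of 12 nuclear complex IV genes, 53 of 78 mitochondrial ribosome genes and 12 of 16 citric acid cycle genes, against 0, 0, 3 and 2 higher. Of the 10 early response and heat shock genes 3 were higher and 4 lower in PSCs, near the shares over all genes.

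Promoters of Ndufs6, Ndufs8 and Sdhd, the 3 members that fell most, and of Ndufa1, which rose most, are shown. The sequences run 5′ to 3′ on the gene's strand, from 250 bases before the start to 50 after it, and come from RefSeq on GRCm38.p6, at chr13:73328433-73328732 (minus) for Ndufs6, chr19:3912725-3913024 (minus) for Ndufs8, chr9:50603800-50604099 (minus) for Sdhd and chrX:37191189-37191488 (minus) for Ndufa1. Capitals mark matches on either strand to GCGCA and GCGC with 1 base of any kind between them, the motif of nuclear respiratory factor 1, a transcription factor of many respiratory chain genes.
Ndufs6: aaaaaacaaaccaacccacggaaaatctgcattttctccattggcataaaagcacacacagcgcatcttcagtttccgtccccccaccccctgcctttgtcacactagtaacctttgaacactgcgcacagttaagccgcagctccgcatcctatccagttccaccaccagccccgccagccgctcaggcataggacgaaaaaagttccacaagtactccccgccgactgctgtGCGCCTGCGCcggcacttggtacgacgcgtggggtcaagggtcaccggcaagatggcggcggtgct
Ndufs8: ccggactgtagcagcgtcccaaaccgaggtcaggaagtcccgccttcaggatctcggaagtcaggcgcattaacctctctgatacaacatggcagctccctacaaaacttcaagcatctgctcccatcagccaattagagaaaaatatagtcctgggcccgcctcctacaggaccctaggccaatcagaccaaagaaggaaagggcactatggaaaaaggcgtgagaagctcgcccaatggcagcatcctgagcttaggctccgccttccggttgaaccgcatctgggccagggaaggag
Sdhd: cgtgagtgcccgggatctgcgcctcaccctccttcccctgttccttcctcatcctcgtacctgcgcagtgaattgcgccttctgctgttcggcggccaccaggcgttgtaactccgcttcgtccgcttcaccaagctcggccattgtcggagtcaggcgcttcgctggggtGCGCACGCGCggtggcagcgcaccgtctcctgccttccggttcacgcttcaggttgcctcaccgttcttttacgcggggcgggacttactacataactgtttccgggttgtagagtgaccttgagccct
Ndufa1: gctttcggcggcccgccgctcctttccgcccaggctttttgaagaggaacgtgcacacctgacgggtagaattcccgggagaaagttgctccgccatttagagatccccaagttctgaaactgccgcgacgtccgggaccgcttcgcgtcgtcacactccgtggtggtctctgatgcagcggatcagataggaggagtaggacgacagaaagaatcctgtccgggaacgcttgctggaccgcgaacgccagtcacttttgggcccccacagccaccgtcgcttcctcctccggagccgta
The match begins 16 bases before the start in Ndufs6 and 79 bases before it in Sdhd, and the Ndufs8 and Ndufa1 windows hold none. Such a match was found in 10 of the 40 nuclear members with a promoter in the table (25%) and in 5.19% of all 27025 genes. CCGGAAG, the motif of ETS factors such as GABP, was found in 8 of 40 (20%) and in 9.93% of all genes, and AAGATGG directly followed by CGG, a YY1 motif, in 4 of 40 (10%) and in 0.995% of all genes, each on either strand and counted without regard to overlap. Of the 10 members with the first motif, 7 were lower and 2 higher in PSCs, and of the 30 without it 12 were lower and 5 higher, beside 38.0% lower and 37.3% higher over all genes. Of the 8 members with the ETS motif 5 were lower and 1 higher, and of the 4 with the YY1 motif 2 were lower and 0 higher. Of the genes of these factors, Yy1 was lower in PSCs by 0.68, Gabpa was higher by 0.50, and Nrf1, at 0.12, did not pass (adjusted p = 0.0977).

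**Figure D4:**
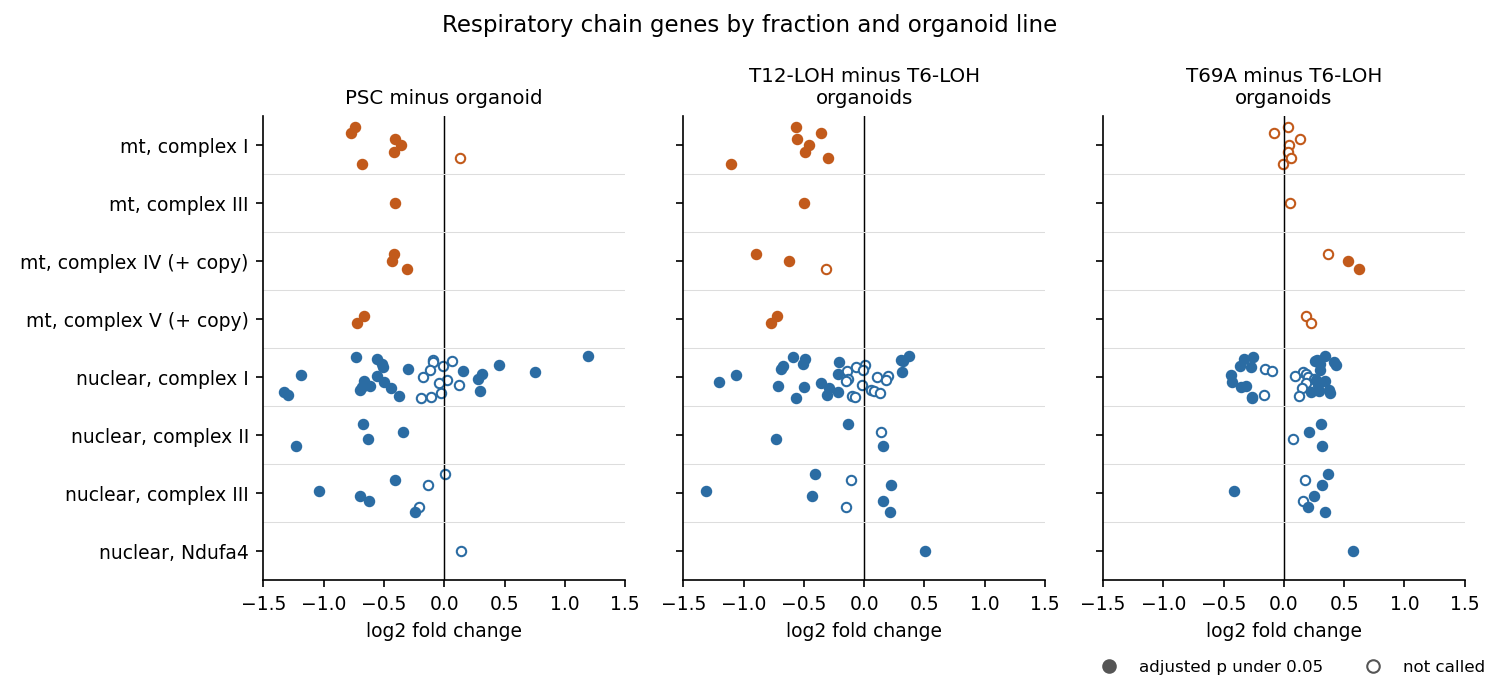
Log2 fold change of each respiratory chain gene (x axis) by genome and complex (rows) for PSC minus organoid fraction, T12-LOH minus T6-LOH organoids and T69A minus T6-LOH organoids; filled points have an adjusted p under 0.05, and 4 mitochondrial genes include their copies. Mitochondrial genes lie below 0 in the first 2 panels, except mt-Nd5 in the first, and around or above 0 in the last, while nuclear complex I genes lie on both sides in all 3.

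Between the KO clones of PSC4, 21 of the 62 members were called, a smaller share than the 45.2% of all genes. Clone B4 minus clone A3, compared beside the same 3 organoid lines, gave 3 mitochondrial genes higher and 0 lower, 2 higher with copies added, and 6 nuclear members higher and 12 lower, where 22.8% of all genes were higher and 22.4% lower. All 13 mitochondrial estimates were positive, with a median of 0.15. mt-Cytb was at 4111, 3933 and 3778 CPM in clone B4 with T6-LOH, T12-LOH and T69A and at 3284, 3168 and 2945 CPM in clone A3 in the same order. The clones did not overlap, and the log2 fold change was 0.31 (SE 0.09, adjusted p = 0.0358). mt-Nd2 rose by 0.26 (SE 0.09, adjusted p = 0.0499), and mt-Co3, which passed as deposited, did not with its copy (0.14, adjusted p = 0.274). The log2 ratio of the mitochondrial to the nuclear sum was higher in B4 beside each organoid line, by 0.31 on average (SD 0.10).

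Ndufa4l2, which represses complex I activity when oxygen is low, differed most. Clone B4 held 0.481, 0.116 and 0.564 CPM with T6-LOH, T12-LOH and T69A, from 13, 3 and 13 counts, against 15.2, 4.43 and 26.1 CPM in clone A3, from 345, 144 and 573 counts. The clones did not overlap beside any organoid line, and the fitted log2 fold change was -5.27 (SE 0.20, adjusted p = 0.000184). WT PSC4 held 9.58, 4.45 and 11.4 CPM in the same order, inside the range of clone A3, whereas PSC5 held 0.356 CPM in clone C5, 0.651 CPM in clone D4 and 1.79 CPM in WT. In both the A3 and the WT PSC4 libraries the lowest value was the one beside T12-LOH. Organoids held 0 or 1 count, and the gene was not tested there.

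Other nuclear members of complex I moved in both directions between the clones. Ndufa13, an accessory subunit also known as GRIM-19, averaged 57.5 ± 6.53 CPM in B4 and 90.6 ± 9.45 CPM in A3 (SD, n = 3 each) and fell by 0.68 (SE 0.08, adjusted p = 0.00160). Ndufb7 fell by 0.63, Ndufv1, the NADH-binding flavoprotein subunit, by 0.63, and Ndufb6 by 0.57, and outside complex I Uqcrh, the hinge subunit of complex III, fell by 0.53 and Sdhb by 0.44. Ndufa12 rose by 0.35, Ndufb2 by 0.32, the core subunits Ndufs3 by 0.31 and Ndufs7 by 0.30, and Ndufb9 by 0.27. With 1 library left out the count of called members was 10 to 13, against 21 in the 6 libraries, which leave 2 residual degrees of freedom. Ndufb2 and Ndufs3 did not pass in any of these fits (lowest adjusted p = 0.07825 and 0.0533).

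The organoid lines differed in both sets. T12-LOH minus T6-LOH organoids, compared beside PSC4, gave 11 mitochondrial genes lower and 0 higher, 12 lower with copies added, and 21 nuclear members lower and 9 higher, where 31.7% of all genes were lower and 31.4% higher. mt-Nd6 was at 24.8, 26.0 and 25.3 CPM in T12-LOH organoids with clones A3 and B4 and WT PSC4 and at 55.9, 56.5 and 52.5 CPM in T6-LOH organoids in the same order. The lines did not overlap, and mt-Nd6 fell by 1.11 (SE 0.08, adjusted p = 8.46e-08). mt-Co1 with its copy was at 8728, 9017 and 8017 CPM in T12-LOH and at 17034.5, 15287 and 16156 CPM in T6-LOH organoids, and fell by 0.90 (SE 0.16, adjusted p = 0.000801). The other mitochondrial genes without a copy fell by 0.30 (mt-Nd5) to 0.77 (mt-Atp8), and mt-Co3 with its copy, at -0.31, did not pass (adjusted p = 0.0916). The log2 ratio of the mitochondrial to the nuclear sum was lower in T12-LOH beside each of the 3 PSC lines, with a mean difference of -0.39 (SD 0.11), and of -0.23 when the gene with the most counts in each set was left out of its sum.

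Of the nuclear members, Uqcrc1 was at 119, 108 and 109 CPM in T12-LOH organoids and at 286, 273 and 281 CPM in T6-LOH organoids, and fell by 1.31 (SE 0.06, adjusted p = 2.16e-09). Ndufb9, an accessory subunit of complex I, was at 59.5, 56.0 and 54.6 CPM in T12-LOH and at 126, 131 and 137 CPM in T6-LOH organoids, and fell by 1.20. Ndufb3 fell by 1.06, Sdhc by 0.73, Ndufs1 by 0.71 and Uqcrc2 by 0.43. In the other direction, Ndufa4 rose by 0.51, with 84.2 ± 7.68 CPM in T12-LOH and 59.7 ± 3.70 CPM in T6-LOH organoids (SD, n = 3 each), Ndufa1 by 0.37, Ndufa13 and Ndufb11 by 0.32, and Ndufa12 by 0.30. Complex II was split, with Sdhc and Sdha (-0.14) lower and Sdhd (0.16) higher.

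T69A minus T6-LOH organoids, with only 2 T69A libraries, gave 23 nuclear members higher and 11 lower, where 27.6% of all genes were higher and 27.7% lower. Of the mitochondrial genes 1 was higher as deposited and 2 with copies added, mt-Co3 by 0.62 (SE 0.17, adjusted p = 0.0112) and mt-Co2 by 0.54 (SE 0.19, adjusted p = 0.0405). The 2 T69A libraries differed from each other in these genes. With its copy, mt-Co3 was at 4484 CPM with clone B4 and 6945 CPM with WT PSC4, against 3885, 3664 and 3522 CPM in T6-LOH organoids. For mt-Co2 with its copy the values were 5801 CPM with clone B4 and 9817 CPM with WT PSC4, against 5702, 5066 and 5149 CPM in T6-LOH organoids. Ndufa4 rose by 0.58 (SE 0.08, adjusted p = 5.94e-05), at 92.4 and 79.7 CPM in T69A organoids, against 61.9, 61.6 and 55.4 CPM in T6-LOH organoids. Ndufa5 rose by 0.43, Ndufs7 by 0.38, Ndufs4 by 0.37, Sdhd by 0.32 and Sdha by 0.31, and 3 of 4 complex II genes and 5 of 8 nuclear complex III genes were higher. Ndufb3 fell by 0.44, Ndufb9 by 0.43, Uqcrc1 by 0.41 and Ndufs1 by 0.32. The comparison shares its T6-LOH libraries with that of T12-LOH.

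The remaining comparisons called none of the 62 genes in the fits without PSC line as a block. PSC5 minus PSC4 lines with T6-LOH gave 0 in the PSC fraction, where 0.454% of all genes passed, with 0 mitochondrial and 6 nuclear members at an unadjusted p under 0.05 (17.0% of all genes). DESeq2 called 2 there, Ndufa11 at 0.41 and Ndufb9 at 0.39, and 7.48% of all genes. T6-LOH organoids beside PSC5 minus those beside PSC4 gave 0, where 0.545% passed, with 1 mitochondrial and 0 nuclear members at an unadjusted p under 0.05 (16.1% of all genes) and 0 by DESeq2 (3.31%). The mitochondrial estimates there were negative for 12 of 13 genes, with a median of -0.21. PSCs beside T12-LOH minus PSCs beside T6-LOH gave 0, where 0.822% passed, with 1 mitochondrial and 3 nuclear members at an unadjusted p under 0.05 (12.7% of all genes) and 0 by DESeq2 (5.61%). The same 3 PSC4 lines recur beside each organoid line. With PSC line as a block, a fit added after seeing the data, 4 members were lower where 17.8% of all genes were called. They were Ndufa10 by 0.22, Ndufa11 by 0.26, Ndufa4 by 0.26 and Ndufa4l2 by 1.45. PSCs beside T69A minus PSCs beside T6-LOH gave 0, where 0% passed, with 0 mitochondrial and 6 nuclear members at an unadjusted p under 0.05 (7.72% of all genes) and 2 lower by DESeq2, Uqcrc1 and Ndufa4 (1.20% of all genes). With PSC line as a block 2 members were lower, Ndufa10 by 0.28 and Ndufa4 by 0.42, where 4.31% of all genes were called. In that comparison 45 of 49 nuclear estimates were negative, with a median of -0.17. Epithelial markers summed to 118 to 154 CPM in the PSCs beside T69A and to 22.2 to 74.3 CPM in the other PSC libraries; their part was not tested.

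Where lines differed, many nuclear members had the sign of their chromosome's median, a description chosen after seeing the data. Between clones B4 and A3, the median log2 fold change of all genes on a chromosome ranged from -0.54 on chromosome 8 to 0.57 on chromosome 10. Chromosome 8 holds Ndufa13 and Ndufb7. Chromosome 10 holds 4 members, among them Ndufa12 and Ndufs7, and also Ndufa4l2, which went against it at -5.27. Of 36 nuclear members on chromosomes with a median beyond 0.1 in size, 28 had the sign of their chromosome. In T12-LOH minus T6-LOH organoids this held for 32 of 40 and in T69A minus T6-LOH organoids for 41 of 44. By construction, most genes on such a chromosome have the sign of its median, and their share was not counted. These counts therefore do not show that members moved with their chromosome more than other genes did. Chromosome 15, which holds Ndufb9, had a median of -0.54 in T12-LOH. Uqcrc1 went against its chromosome, the median of chromosome 9 being 0.19 in T12-LOH where Uqcrc1 was at -1.31. In the KO comparison of organoids no chromosome had a median beyond 0.1 in size, and in KO minus WT PSCs 9 nuclear members lay on such chromosomes, 8 of them with the chromosome's sign. Mitochondrial genes lie on none of these chromosomes.

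**Figure D5:**
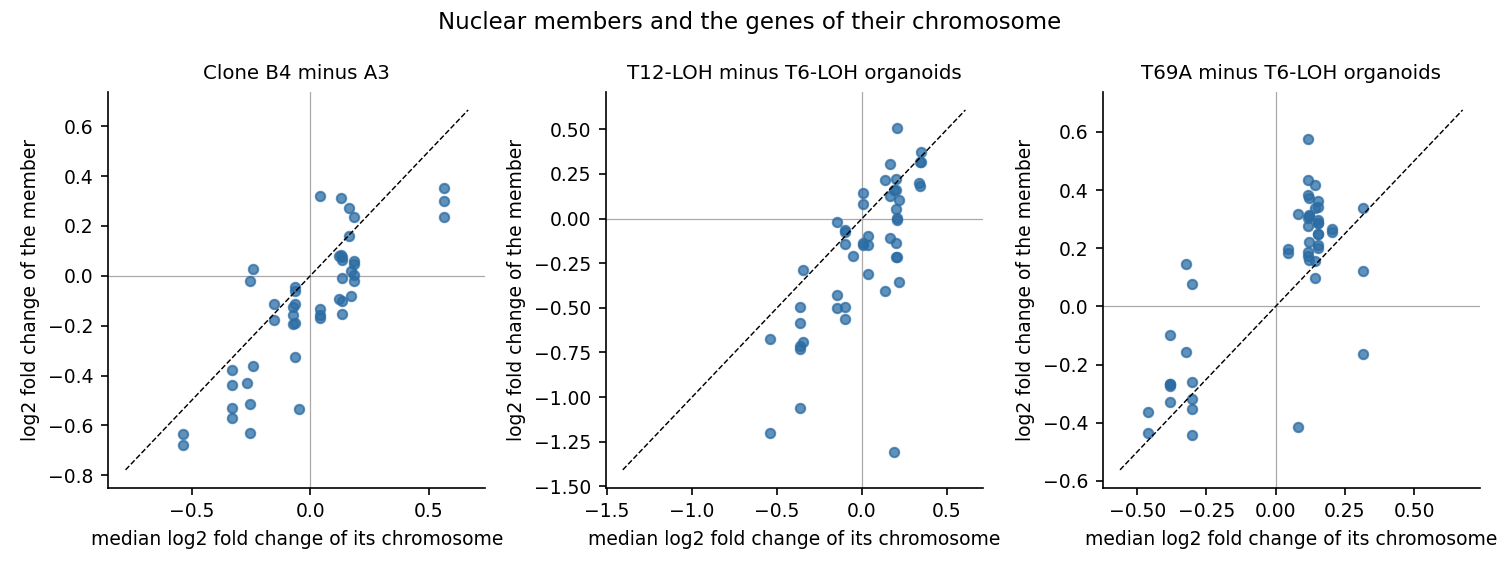
Log2 fold change of each nuclear member (y axis) against the median log2 fold change of all genes tested on its chromosome (x axis) for clone B4 minus clone A3, T12-LOH minus T6-LOH organoids and T69A minus T6-LOH organoids; the dashed line marks equal values, and Ndufa4l2, at -5.27 in the first panel, is left out. In T12-LOH Uqcrc1 lies far below the line at -1.31.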

How the data were processed

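The 23 RNA-seq libraries were deposited as 1 table of transcripts each. The deposited estimated counts and TPM per transcript were made by the authors with Salmon 1.9.0; per the submitters' processing notes the build was GRCm39 (mm39), while no source used here gives the transcript annotation, library kit or strandedness. Of 117135 transcripts, 115973 (99.0%) matched GENCODE M21, whose build, GRCm38, differs, so it gave names and printed GRCm38 positions only; unmatched transcripts held 0.364 to 0.443% of counts. Estimated counts were summed per gene and rounded to whole numbers, 21731624 to 34677662 per library, so that 95% Wilson intervals of the summed shares were at most 0.0174 percentage points wide, for counting error only. TPM was summed per gene and used for levels between genes and, as an alternative to counts, for the log2 ratio of the 2 sums.

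The main test was that of edgeR 4.0.16, run under R 4.3.3 (TMM, filterByExpr, robust quasi-likelihood F test) over all genes tested, with Benjamini-Hochberg adjustment and a threshold of 0.05. Every adjusted p comes from this test unless DESeq2 is named. The standard error is the size of the log2 fold change over the square root of F. The KO fits had co-culture (organoid line with PSC parent) as a block, with 7 residual degrees of freedom in PSCs and 6 in organoids; the fraction fit had culture as a block over 11 cultures; line contrasts came from the KO fits, and clones were compared with organoid line as a block. CPM uses TMM sizes over all 23 libraries. Sums carry no test. The tests were checked on simulated counts. DESeq2 1.42.0, limma 3.58.1 (PSC line as a random effect), other size factors and filters, copies added or left out, and single libraries left out were alternatives. The members, lists and tests were chosen with earlier results of these data known. Named are the mitochondrial genes, per comparison and direction up to 5 called nuclear members with the largest change (or, in KO comparisons with fewer than 3, the 3 with the smallest p), 16 nuclear subunits in any comparison and up to 3 genes per list. The values of 1 gene that this rule names are not reported here. Ndufa4l2 did not pass the filter on low counts in the organoid and fraction fits, which left 48 of 49 nuclear members tested there.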

Additional observations from a re-analysis of the deposited data

Results flagged for a closer look

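The CPM of the members that the naming rule covers, 4 mitochondrial genes with copies added, the summed shares and their ratio were checked in each group of 4 to 8 libraries for a library apart from the rest by Dixon's ratio. Of 212 groups 13 had such a library, where chance gives about 1 in 20.

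Of these, 5 were the same library, T69A organoids with clone B4, which was the highest of the 7 organoid libraries with KO PSCs. It held 28.6 CPM of Ndufa5 (20.0 to 22.8 in the others), 80.2 CPM of Ndufa9 (57.7 to 62.8), 121.8 CPM of Ndufb8 (77.1 to 94.3), 30.5 CPM of Ndufs5 (22.9 to 26.0) and 45.7 CPM of Ndufs7 (33.4 to 36.6). It is the only T69A library of its group, so line and library cannot be told apart.

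Another 4 were WT PSC5 with T6-LOH, the only PSC5 library of its group, at 73.8 CPM of Ndufa2 (53.6 to 56.6 in the other WT PSC libraries), 23.0 CPM of Ndufb2 (16.9 to 17.2) and 93.2 CPM of Ndufb9 (62.0 to 65.8), all highest, and at 37.1 CPM of Ndufb7 (46.0 to 47.6), lowest.

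Among KO PSCs, clone D4 was highest for Ndufb3 at 24.9 CPM (17.0 to 20.5 in the others), clone C5 highest for Ndufs4 at 36.6 CPM (25.1 to 30.4), and clone A3 with T69A lowest for Ndufs1 at 53.4 CPM (63.8 to 72.0). T12-LOH organoids with WT PSC4 held 0.0362 CPM of Ndufa4l2, which is 1 count, and the other organoids with WT PSCs held 0.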

How the results depend on the processing

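Counts below are members called. No paired analysis was possible because no replicate number is shared between groups, so none was made by number; culture paired the PSC and organoid libraries in the fraction fit, and co-culture was the block in the KO fits. DESeq2's test called 6 in KO minus WT PSCs, 4 for the difference between the KO effects in PSCs and organoids, 2 for PSC5 minus PSC4 lines and 2 for PSCs beside T69A minus T6-LOH, against 0 in each by edgeR, where more genes were called overall. With PSC line as a block over the PSC4 libraries, a fit added after seeing the data, PSCs beside T12-LOH minus T6-LOH gave 4 and beside T69A minus T6-LOH 2. In organoids the count with KO PSCs, 5, was 0 without the co-culture block and 2 without the T69A co-culture; leaving out single libraries gave 0 to 11, namely 0 without WT PSC5, 1 without T12-LOH with WT PSC4 or T6-LOH with clone D4, 3 without clone C5, 11 without T6-LOH with WT PSC4, and 2 without T69A with WT PSC4 or clone B4, or T6-LOH or T12-LOH with clone A3. The fraction count, 43, was 27 over WT libraries only, where mt-Nd5 turned to -0.14, and 39 to 45 without single libraries. Leaving out single libraries gave 10 to 13 for clone B4 minus A3, 30 to 42 for T12-LOH minus T6-LOH, 24 to 37 for T69A minus T6-LOH, 0 to 1 for T6-LOH organoids beside PSC5 minus PSC4 and 0 to 0 in the remaining comparisons; the KO effect by parent could not be fitted without WT PSC5. Without single libraries the log2 ratio of the sums ranged from 0.25 to 0.38 for KO minus WT PSCs, -0.24 to 0.02 in organoids by KO, -0.10 to 0.04 between fractions, 0.28 to 0.37 between clones and -0.45 to -0.35 for T12-LOH minus T6-LOH, where it was -0.23 without the gene with the most counts in each set; between fractions it was -0.26 in TPM. The cause of these changes was not tested. Over named genes, 1680 of 1825 values kept their direction and side of the threshold, 136 lost the call, 8 gained it and 1 reversed. Depth limits Ndufa4l2, with 0 or 1 count in organoids.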
